A study of Mus musculus with 6 samples.

Results

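The genes of the major histocompatibility complex (MHC) and of antigen presentation were followed through the conversion of fibroblasts to blood progenitors. They were taken by name, with earlier results of these data known. The rule took every protein-coding gene whose symbol begins with H2-, which were 35. It also took 14 named genes of the pathway (B2m, Cd74, Ciita, Tap1, Tap2, Tapbp, Psmb8, Psmb9, Psmb10, Nlrc5, Cd1d1, Cd80, Cd86 and Cd40). All were found, so that 49 of the 26323 genes measured were described here. H2-Ke2 and H2-Ke6 are older names of Pfdn6, a subunit of the prefoldin chaperone, and Hsd17b8, a steroid and fatty acid metabolism enzyme. They lie in the same region without presenting antigen, and were kept because the naming rule takes them.

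RNA was measured on 6 Mouse Exon 1.0 ST arrays, 2 for each of 3 groups of wild-type mouse cells. The first group was untreated mouse embryonic fibroblasts (MEFs), which received no factor. The second was CDH5+ cells, sorted 8 days after transduction of fibroblasts with the 5 factors ERG, GATA2, LMO2, RUNX1c and SCL, and the third was c-KIT+ cells, sorted 12 days after it. CDH5 is the endothelial junction protein VE-cadherin and c-KIT the receptor of stem cell factor. The sorted groups therefore differ from the untreated one in the factors, the culture and the sort together, and from each other in the day and the gate, and these cannot be told apart. The study calls the arrays biological replicates, and no source used here says how the cultures were separated.

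Class I molecules show peptides from inside the cell. Most of these peptides are cut by the proteasome, carried into the endoplasmic reticulum by the transporter TAP and loaded onto a heavy chain paired with the light chain B2m. Interferon gamma exchanges 3 catalytic subunits of the proteasome for Psmb8, Psmb9 and Psmb10, giving the immunoproteasome, and it raises TAP and the heavy chains as well. Class II molecules show peptides from material taken up by dendritic cells, B cells and macrophages. Their expression depends on the transactivator Ciita, while Nlrc5 acts on class I genes.

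The promoters printed here are those of some of the genes on which the results below turn. They are those of class I heavy chains H2-K1 and H2-D1, their light chain B2m, and the immunoproteasome genes Psmb8 and Psmb9, without Psmb10. Each is the 250 bases before the RefSeq start of the gene (GRCm38.p6), 5′ to 3′ in the direction of the gene, except that Psmb9 and Tap1, which are read in opposite directions, share the 225 bases between their starts. Capitals mark matches, on either strand, to an interferon response element-like motif (GAAA, any 2 bases, GAAA), an interferon gamma activation site-like motif (TTCNNNGAA) and the NF-kappaB motif. The windows are chr17:34000348-34000597 on the minus strand for H2-K1, chr17:35262844-35263093 on the plus strand for H2-D1, chr2:122147437-122147686 on the plus strand for B2m, chr17:34197945-34198194 on the plus strand for Psmb8, and chr17:34187331-34187555, in the direction of Tap1, for the shared stretch. RefSeq lists 2 starts for H2-K1, of which 1 is shown.
H2-K1: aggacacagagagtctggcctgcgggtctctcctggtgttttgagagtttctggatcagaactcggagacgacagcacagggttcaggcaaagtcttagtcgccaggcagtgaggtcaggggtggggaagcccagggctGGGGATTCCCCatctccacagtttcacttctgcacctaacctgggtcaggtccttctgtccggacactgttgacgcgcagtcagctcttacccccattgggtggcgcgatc
H2-D1: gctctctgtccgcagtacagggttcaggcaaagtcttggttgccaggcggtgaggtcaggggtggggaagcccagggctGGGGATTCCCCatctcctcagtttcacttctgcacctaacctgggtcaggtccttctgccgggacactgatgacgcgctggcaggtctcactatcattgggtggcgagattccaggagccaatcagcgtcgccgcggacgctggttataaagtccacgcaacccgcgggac
B2m: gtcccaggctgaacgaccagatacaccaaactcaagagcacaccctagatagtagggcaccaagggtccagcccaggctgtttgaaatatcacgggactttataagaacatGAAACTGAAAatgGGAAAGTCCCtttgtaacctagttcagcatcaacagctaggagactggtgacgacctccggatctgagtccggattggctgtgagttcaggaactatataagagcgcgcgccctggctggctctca
Psmb8: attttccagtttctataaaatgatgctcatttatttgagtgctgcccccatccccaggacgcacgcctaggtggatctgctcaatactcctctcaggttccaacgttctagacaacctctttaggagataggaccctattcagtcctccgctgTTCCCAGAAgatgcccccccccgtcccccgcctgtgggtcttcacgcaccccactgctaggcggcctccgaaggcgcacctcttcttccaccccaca
Psmb9 and Tap1: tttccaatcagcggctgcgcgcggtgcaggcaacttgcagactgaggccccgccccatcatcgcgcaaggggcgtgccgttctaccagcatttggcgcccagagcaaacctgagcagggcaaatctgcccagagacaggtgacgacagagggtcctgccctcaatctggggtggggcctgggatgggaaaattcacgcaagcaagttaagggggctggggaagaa
H2-K1 and H2-D1 held the same NF-kappaB match inside an identical run of 47 bases. B2m held an interferon response element-like match beside an NF-kappaB match, Psmb8 an activation site-like match, and the stretch between Psmb9 and Tap1 no match to these motifs. Of the 49 genes 38 had a promoter in the table. The interferon response element-like motif was found in 3 of the 38 (B2m, H2-T22 and H2-T23), against 2.98% of all 32851 promoters of the same length, TTCNNNGAA in 4 against 7.02%, and the NF-kappaB motif in 10 against 7.25%, all 10 of them B2m or H2- genes. The inverted CCAAT box ATTGG, found in the promoters of both MHC classes, was in 32 of 38 against 33.8%. A gene was counted if any of its listed starts had a match, while the percentages are over single promoters, of which a gene can have several. H2- promoters resemble each other, so these matches are not independent, and a match is a description of letters and not a site. Only these patterns were searched, so other forms of an element, in H2-K1 and H2-D1 as elsewhere, were neither marked nor counted.

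A linear model with a mean per group was fitted to the deposited log2 values of all 26323 genes with limma, and p-values were adjusted over all of them by the Benjamini-Hochberg method. A gene was called at an adjusted p under 0.05. Untreated replicates were the least alike: their Pearson correlation over all genes was 0.91, that of the CDH5+ pair 0.94 and that of the c-KIT+ pair 0.97. Olfactory receptor genes, which these cells are not expected to use, served as background: the 95th percentile of 802 of them lay between 5.94 and 6.03 on the 6 arrays. Markers of the fibroblast fell (3 of 5 called in c-KIT+ cells), and those of the blood progenitor rose (4 of 5 called, with the leukocyte marker Ptprc not among them at a log2 difference of 0.47), as did 2 of 5 endothelial markers in c-KIT+ and 4 of 5 in CDH5+ cells. Since whole populations were measured, fewer cells of a type and less RNA per cell cannot be told apart.

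Both arrays of a group exceeded the background for 10 of the 49 genes in untreated MEFs, against 14 in the CDH5+ and 17 in the c-KIT+ group. For 8 genes every array did: H2-K1, H2-D1, H2-Q6, H2-T22, B2m, Psmb10, Tapbp and H2-Ke2. The 17 of c-KIT+ cells were those 8 with H2-Q2, H2-T23, H2-M3, Cd1d1, Psmb8, Psmb9, Tap1, Tap2 and H2-Oa. A further 24 genes exceeded the background on no array, among them 9 of the 12 heavy chains of the M region, 3 of the 4 class II chains, and both transactivators. The difference of a gene that starts within the background, as Psmb8, Psmb9, Tap2, Cd1d1 and H2-Oa did in untreated MEFs, can understate its change.

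**Figure D1:**
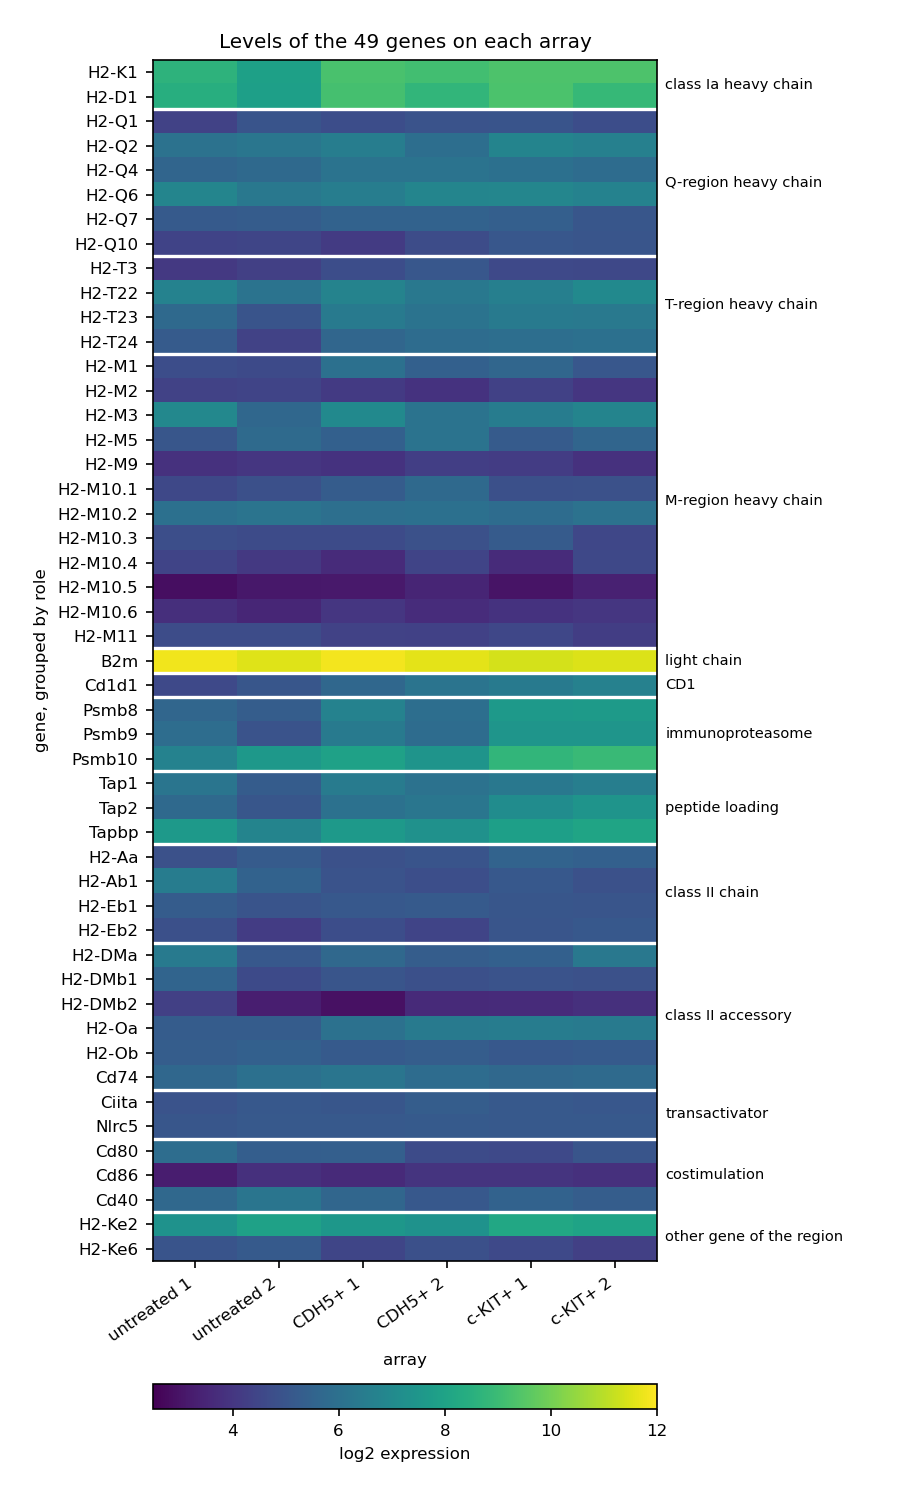
Log2 expression of each of the 49 genes (rows, grouped by role) on each of the 6 arrays (columns), as colour from 2.5 to 12. B2m is bright on every array, at 11.39 or more, the immunoproteasome genes and Tap2 brighten in the c-KIT+ columns, and most M region and class II rows stay dark throughout.

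In c-KIT+ cells, 6 of the 49 genes were higher than in untreated MEFs and 0 were lower (limma, adjusted p under 0.05), that is 12.2% against 3.24% of all genes called higher and 2.72% called lower. The 6 were Psmb8, Psmb9 and Psmb10, the transporter subunit Tap2, the lipid-presenting molecule Cd1d1 and the class II accessory chain H2-Oa. Before adjustment, 11 passed 0.05 as higher (22.4%, against 11.2% of all genes) and 2 as lower (4.08%, against 9.85%). Both c-KIT+ arrays lay above both untreated arrays for 23 genes (46.9%, against 28.6% of all genes) and below them for 8 (16.3%, against 22.9%). The median log2 difference was 0.23 over the 49 and 0.05 over all genes. With c-KIT+ replicate 1 or 2 left out 0 of the 49 were called, and with CDH5+ replicate 1 or 2 left out, where the means compared stay the same and 2 residual degrees of freedom remain, 2 were, namely Psmb8 and Cd1d1. All 6 differences kept their direction in each of these fits.

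The immunoproteasome subunits rose together. Psmb8 (ENSMUSG00000024338), the subunit also called LMP7, measured 5.65 and 5.29 on the log2 scale in untreated MEFs, 6.70 and 5.93 in CDH5+ cells, and 7.62 and 7.68 in c-KIT+ cells. Its arrays did not overlap between any of the groups. The difference between c-KIT+ cells and untreated MEFs was 2.18 (standard error 0.31), a 4.53-fold rise, at a limma adjusted p of 0.0184. Psmb8 was also the 1 gene of the 49 called by limma's F-test over the 3 groups (adjusted p = 0.0451), which called 3.3% of all genes.

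Psmb9 (ENSMUSG00000096727), or LMP2, measured 5.89 and 4.95 in untreated MEFs, 6.43 and 5.85 in CDH5+ cells, and 7.44 and 7.47 in c-KIT+ cells. The c-KIT+ arrays stood above all others, while untreated and CDH5+ arrays overlapped. The rise from untreated MEFs was 2.03 (standard error 0.37), or 4.08-fold (limma adjusted p = 0.0379). Psmb10 (ENSMUSG00000031897), or MECL-1, measured 6.72 and 7.55, 7.94 and 7.43, and 8.74 and 8.95 in the same order of groups. Here too only the c-KIT+ arrays stood apart from the rest, by 1.71 from untreated MEFs (standard error 0.34), or 3.27-fold (limma adjusted p = 0.0482). Psmb10 was the called gene nearest to the threshold: without untreated replicate 1 its difference was 1.29 at a limma adjusted p of 0.0979.

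Of the standard subunits that these replace, Psmb6 and Psmb7 were matched in the table and not called, and Psmb5, replaced by Psmb8, was not analysed here. Psmb6, replaced by Psmb9, measured 9.43 and 9.75 in untreated MEFs, 9.38 and 8.92 in CDH5+ cells, and 9.65 and 9.64 in c-KIT+ cells, a difference of 0.06 between c-KIT+ cells and untreated MEFs (limma adjusted p = 0.927). Psmb7, replaced by Psmb10, had a difference of -0.06 (limma adjusted p = 0.939). The c-KIT+ arrays of both lay inside the untreated range. The proteasome activator subunits Psme1 and Psme2, which interferon gamma also raises, had differences of 0.60 and 0.23 and were not called.

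Of the genes for peptide transport and loading, Tap2 passed the test. Tap2 (ENSMUSG00000024339) measured 5.74 and 5.03 in untreated MEFs, 6.05 and 6.23 in CDH5+ cells, and 7.12 and 7.43 in c-KIT+ cells. The 3 groups did not overlap, and c-KIT+ cells were 1.89 above untreated MEFs (standard error 0.30), or 3.71-fold (limma adjusted p = 0.025). Its partner Tap1, with which it forms the transporter, measured 6.20 and 5.27, 6.46 and 6.06, and 6.30 and 6.57 in the same order. Its c-KIT+ arrays lay above the untreated ones by 0.70 (standard error 0.36) and overlapped the CDH5+ ones (limma adjusted p = 0.342). Tapbp, tapasin, which bridges TAP and the heavy chain, had a difference of 0.76 with no overlap (limma adjusted p = 0.260).

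Psmb9 and Tap1 share the stretch printed above, so their values were set side by side. Within an array, the log2 value of Psmb9 minus that of Tap1 was -0.31 and -0.33 in untreated MEFs, -0.03 and -0.22 in CDH5+ cells, and 1.13 and 0.90 in c-KIT+ cells. Both c-KIT+ arrays stood apart from the other 4 by this measure. Zero has no meaning for it, since probes of different genes differ in brightness, and the shift of 1.33 between c-KIT+ cells and untreated MEFs was not tested.

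**Figure D2:**
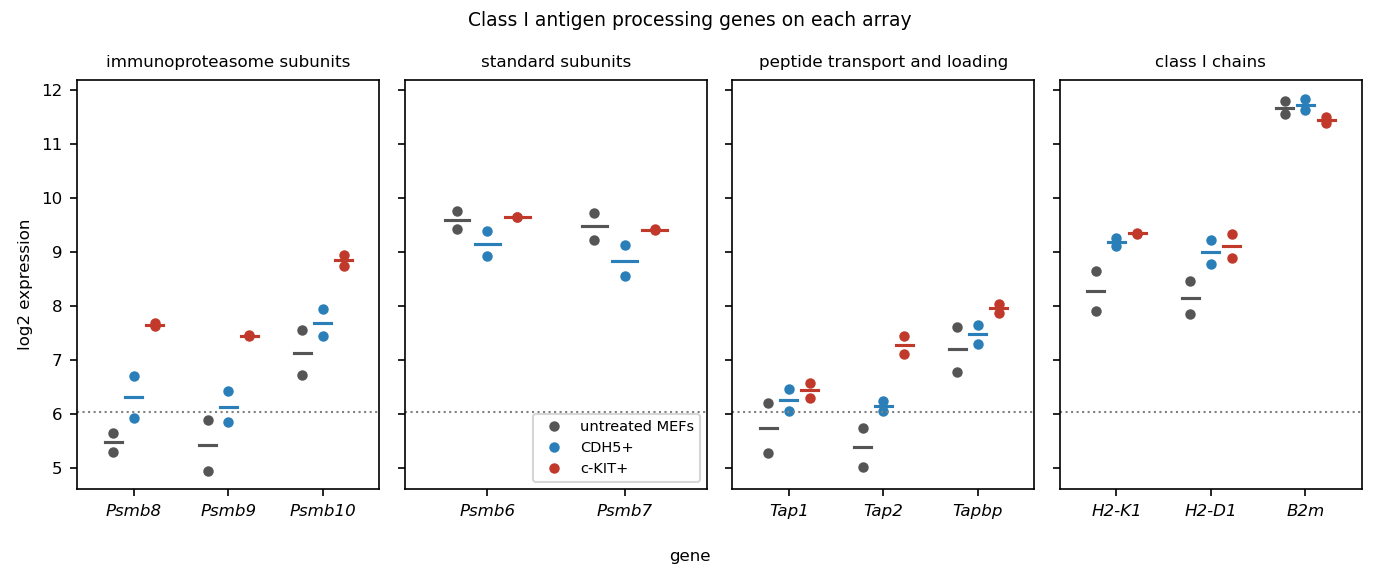
Log2 expression of class I processing genes on each array (points, with group means as short lines) in untreated MEFs, CDH5+ and c-KIT+ cells, with the highest background level among the arrays, 6.03, dotted. Psmb8, Psmb9, Psmb10 and Tap2 have their c-KIT+ points above all others, while Psmb6 and Psmb7 do not.

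The neighbourhood of these genes on chromosome 17 was followed gene by gene. From H2-Oa to H2-Eb2, RefSeq places 14 protein-coding genes, of which 13 belong to the 49, and the 4 called ones among these 13 were H2-Oa, Psmb9, Psmb8 and Tap2. The last 3 lie in a row of 4 adjacent genes with Tap1 between Psmb9 and Psmb8. On one side of that row H2-DMa, H2-DMb2 and H2-DMb1 had differences of 0.09, -0.06 and -0.20 between c-KIT+ cells and untreated MEFs, and on the other side H2-Ob had -0.23 and H2-Ab1 -0.99, none of them called.

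**Figure D3:**
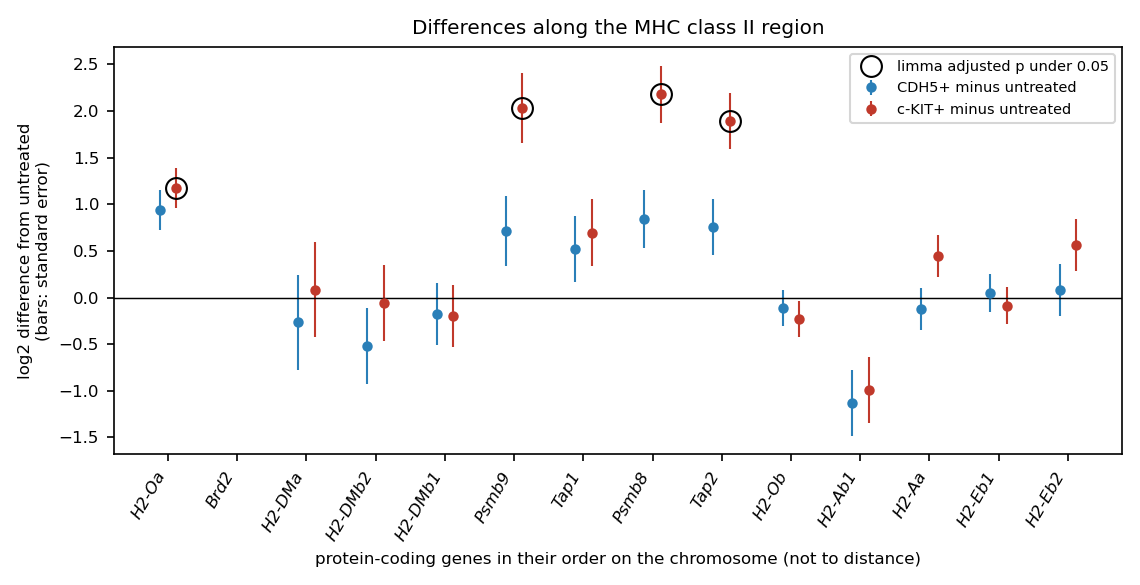
Log2 difference from untreated MEFs (points, bars are standard errors) for CDH5+ and c-KIT+ cells, with protein-coding genes in their chromosomal order and Brd2, which is not among the 49, left blank. The 4 called differences of c-KIT+ cells, 1.18 to 2.18, are circled, and class II chains between H2-Ab1 and H2-Eb2 have none.

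The class Ia heavy chains, which present peptides to cytotoxic T cells, were higher on every transduced array without a call. H2-K1 measured 8.64 and 7.91 in untreated MEFs, 9.26 and 9.11 in CDH5+ cells, and 9.35 and 9.33 in c-KIT+ cells. H2-D1 measured 8.45 and 7.86, 9.22 and 8.77, and 9.33 and 8.88 in the same order. For both, the untreated arrays lay below all 4 others. The differences between c-KIT+ cells and untreated MEFs were 1.07 for H2-K1 (standard error 0.29, limma adjusted p = 0.0989) and 0.95 for H2-D1 (standard error 0.31, limma adjusted p = 0.163), and those between CDH5+ cells and untreated MEFs were 0.91 and 0.84. H2-K1 was called, at 1.43, when untreated replicate 1 was left out (limma adjusted p = 0.0390).

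B2m, the light chain, had its lowest values in c-KIT+ cells. It measured 11.79 and 11.55 in untreated MEFs, 11.83 and 11.61 in CDH5+ cells, and 11.39 and 11.49 in c-KIT+ cells. The c-KIT+ arrays did not overlap the others, and the difference from untreated MEFs was -0.23 (standard error 0.21, limma adjusted p = 0.605).

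Among the class Ib heavy chains none was called. In the T region, H2-T23, which encodes Qa-1, measured 5.76 and 4.97 in untreated MEFs, 6.43 and 6.13 in CDH5+ cells, and 6.42 and 6.35 in c-KIT+ cells, without overlap between untreated and transduced arrays. Its difference of 1.02 in c-KIT+ cells had a limma adjusted p of 0.134, and that of H2-T24, 1.16, had 0.102. H2-T24 was called, at 1.58, without untreated replicate 1 (limma adjusted p = 0.0362). The 6 Q region genes had differences from -0.02 to 0.60 and the 12 M region genes from -0.33 to 0.67. In H2-M3, which presents formylated peptides, the untreated pair, at 6.94 and 5.66, was farther apart than any 2 group means of this gene. Heavy chain genes are close in sequence, and H2-Q1, H2-Q4, H2-Q6 and H2-T22 had no probe set listed for them alone, so that a signal may be shared between them.

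Cd1d1, which presents lipids to natural killer T cells, rose. It measured 4.60 and 5.06 in untreated MEFs, 5.67 and 6.17 in CDH5+ cells, and 6.43 and 6.67 in c-KIT+ cells. The 3 groups were ordered without overlap, and c-KIT+ cells stood 1.72 above untreated MEFs (standard error 0.28), or 3.29-fold (limma adjusted p = 0.0274). Without untreated replicate 1 the difference was 1.49 and not called (limma adjusted p = 0.0769). Cd1d2, its near copy, had a difference of 0.32 (limma adjusted p = 0.590).

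Of the class II genes, 1 of 10 was called. All 4 chains, H2-Aa, H2-Ab1, H2-Eb1 and H2-Eb2, were within the background on at least 1 array of every group. H2-Ab1 measured 6.48 and 5.48 in untreated MEFs, 4.91 and 4.79 in CDH5+ cells, and 5.12 and 4.86 in c-KIT+ cells. Both untreated arrays lay above all others, by 0.99 from c-KIT+ cells (limma adjusted p = 0.190). With untreated replicate 2 left out this was 1 lower call among the 49, at a log2 difference of -1.49 (limma adjusted p = 0.0286). The invariant chain Cd74 lay between 5.69 and 6.19 on the 6 arrays, with a difference of -0.11 between c-KIT+ cells and untreated MEFs, Ciita between 4.94 and 5.31 with 0.10, and Nlrc5 between 5.04 and 5.19 with 0.06. The untreated arrays of Cd74 and Ciita overlapped both other groups, both c-KIT+ arrays of Cd74 lay below its CDH5+ arrays, and both untreated arrays of Nlrc5 lay just below the other 4.

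The called gene was H2-Oa (ENSMUSG00000024334), the alpha chain of the H2-O dimer that restrains peptide exchange by H2-DM in B cells. It measured 5.28 and 5.27 in untreated MEFs, 6.03 and 6.40 in CDH5+ cells, and 6.50 and 6.41 in c-KIT+ cells. The untreated pair lay below both transduced pairs, by 1.18 for c-KIT+ cells (standard error 0.21), or 2.26-fold (limma adjusted p = 0.0368). Its partner H2-Ob stood at 5.32 and 5.43 in untreated MEFs and at 5.11 and 5.18 in c-KIT+ cells, a difference of -0.23 that was not called (limma adjusted p = 0.568). The beta chains and alpha chain of H2-DM, H2-DMa, H2-DMb1 and H2-DMb2, had differences of -0.20 to 0.09. H2-Oa lost its call without untreated replicate 1 or 2 (limma adjusted p = 0.0836 and 0.0525).

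The costimulatory molecules of antigen presenting cells, Cd80, Cd86 and Cd40, were at or near background. They had differences of -0.80, 0.35 and -0.56 between c-KIT+ cells and untreated MEFs. None was called, with a lowest adjusted p of 0.259 in limma, for Cd80. H2-Ke2 and H2-Ke6 had differences of 0.46 and -0.64 and were not called.

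**Figure D4:**
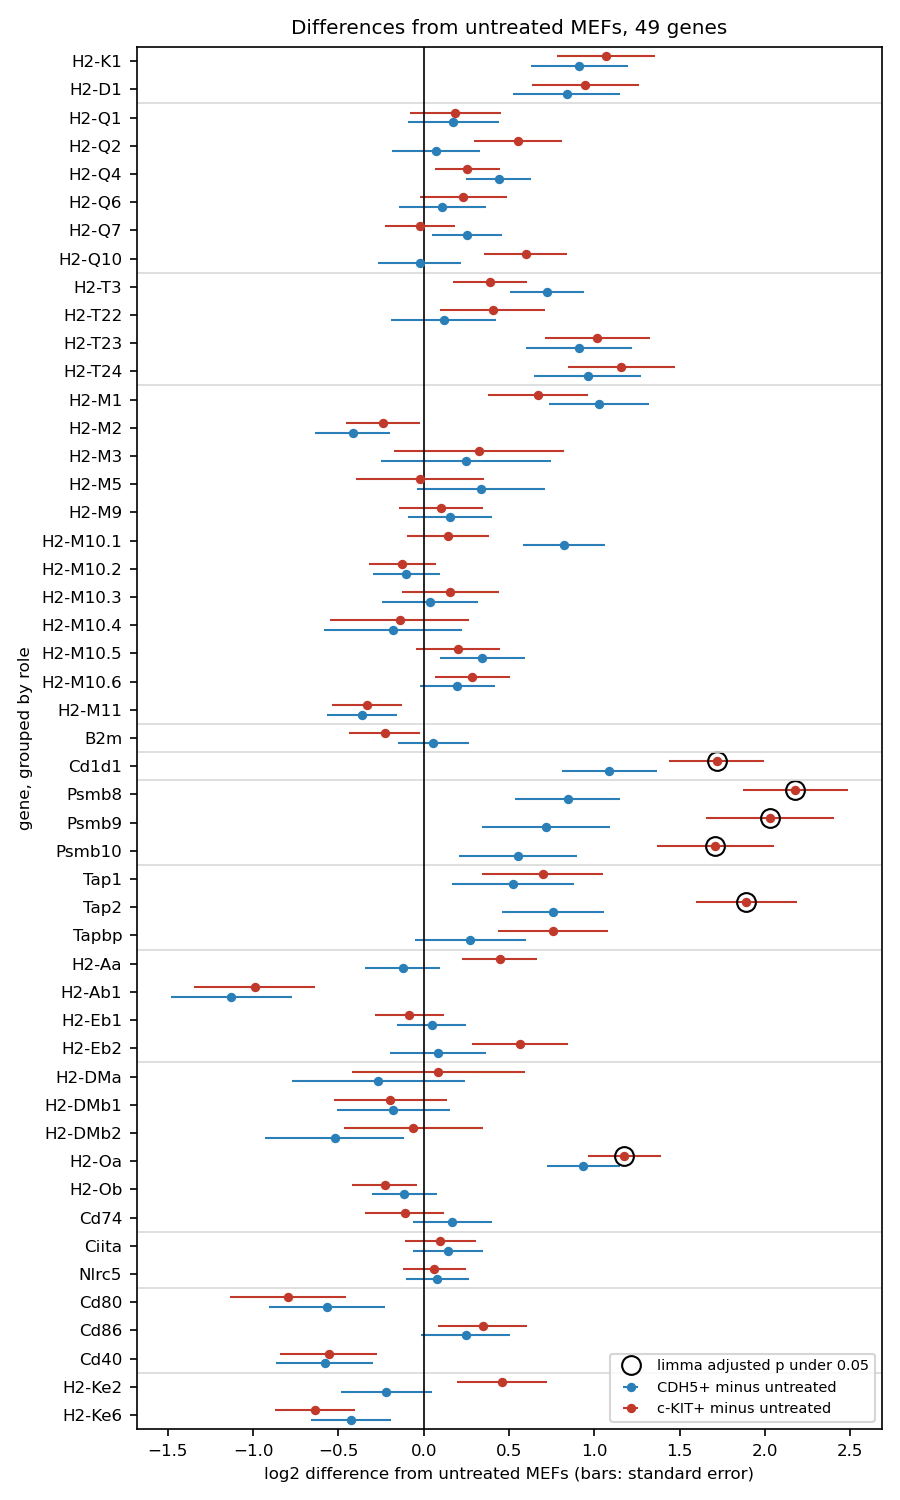
Log2 difference from untreated MEFs of each of the 49 genes in CDH5+ and c-KIT+ cells (points, bars are standard errors), grouped by role. The 6 differences called in c-KIT+ cells, 1.18 to 2.18, are circled, and no CDH5+ difference is.

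In CDH5+ cells, 0 of the 49 genes were called against untreated MEFs by limma, with a lowest adjusted p of 0.137 for H2-Oa, while 0.965% of all genes were called higher and 0.213% lower. Before adjustment, 11 passed 0.05 as higher (22.4%, against 6.3% of all genes) and 1 as lower (2.04%, against 8.99%). Both CDH5+ arrays lay above both untreated arrays for 15 genes (30.6%, against 18.1%) and below for 7 (14.3%, against 25.2%). The median log2 difference was 0.16 over the 49 and -0.07 over all genes. The differences of the 6 genes called in c-KIT+ cells were 0.84 for Psmb8, 0.72 for Psmb9, 0.55 for Psmb10, 0.76 for Tap2, 1.09 for Cd1d1 and 0.93 for H2-Oa. Both comparisons share the untreated arrays, so these values are not a second observation of the same rise.

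Between c-KIT+ and CDH5+ cells 0 of the 49 were called by limma, and 0% of all genes were, with a lowest adjusted p of 0.209 among the 49 for Psmb8. Before adjustment, 7 passed 0.05 as higher in c-KIT+ cells (14.3%, against 11.2% of all genes) and 1 as lower (2.04%, against 4.79%). The c-KIT+ arrays lay above the CDH5+ arrays for 15 genes (30.6%, against 36.6%) and below them for 9 (18.4%, against 18.7%). All 3 immunoproteasome genes and Tap2 were among the 7, with log2 differences of 1.34 for Psmb8, 1.31 for Psmb9, 1.16 for Psmb10 and 1.13 for Tap2. H2-K1 and H2-D1 had differences of 0.16 and 0.11. The median was 0.10 over the 49 and over all genes.

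Exon probe sets gave a second view of the same arrays. Probe sets listed for 1 gene alone were found for 45 of the 49 genes. Both c-KIT+ arrays exceeded both untreated arrays in 10 of 11 probe sets of Psmb8, 11 of 17 of Psmb9, 9 of 9 of Psmb10, 15 of 18 of Tap2, 4 of 4 of Cd1d1 and 6 of 8 of H2-Oa, where 24.9% of all such probe sets did so. For Tap1 this was 9 of 19, for H2-K1 12 of 16 and for H2-D1 10 of 12. For the standard subunits it was 5 of 8 for Psmb6 (median difference 0.30) and 1 of 13 for Psmb7 (median difference 0.02). No probe set of B2m did, and 3 of its 5 were below, against 23.2% of all. The probe sets of a gene read the same RNA and are no replicates.

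Psmb9 was uneven across its probe sets, whose differences ran from -0.51 to 4.23 with a median of 0.91, while those of Psmb10 kept between 1.16 and 2.08. With a gene taken as the median of its probe sets, Psmb9 was at 0.76 and not called (limma adjusted p = 0.309), nor was Cd1d1 at 0.94 (limma adjusted p = 0.188) or Psmb10 at 1.76 (limma adjusted p = 0.0715). H2-Ke6 changed sign: its deposited value had a difference of -0.64 between c-KIT+ cells and untreated MEFs, and the median over its 11 probe sets was 0.84. In a search over all subsets of a gene's probe sets, its deposited value equalled the mean of 2 of the 11 on every array to within 2e-05. That of Psmb8 equalled the mean of 10 of 11, that of Tap2 the mean of 17 of 18 and that of Cd1d1 the mean of 3 of 4. Such a subset was found for 24 of the 43 genes searched. For Psmb9, Psmb10 and H2-Oa none was found, so which probe sets their deposited values rest on is not known.

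**Figure D5:**
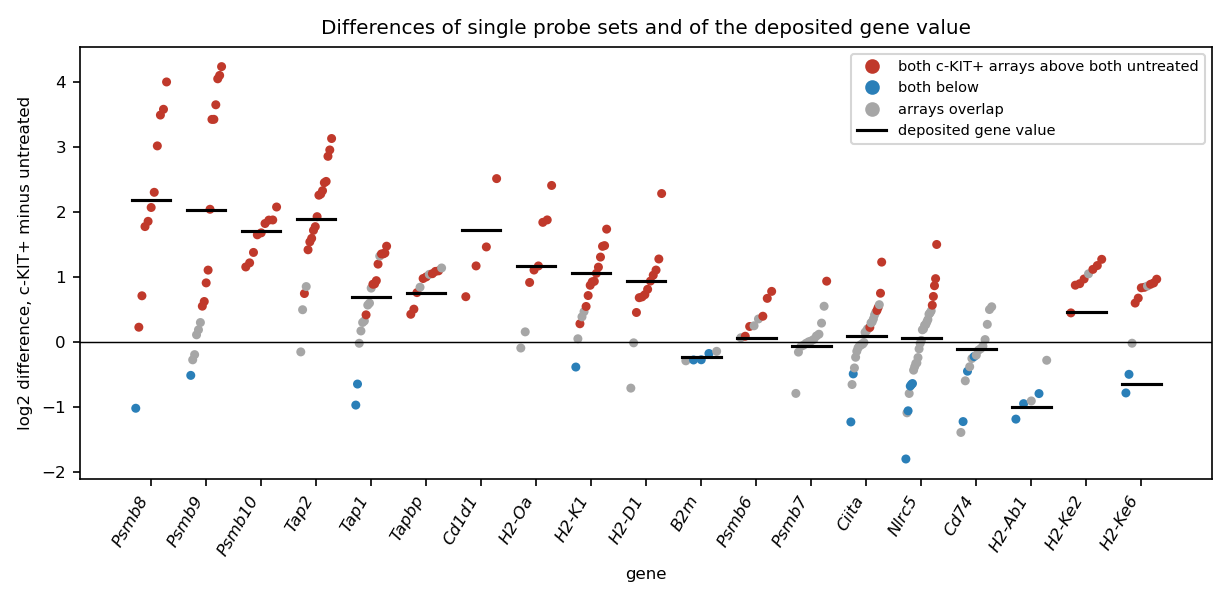
Log2 difference between c-KIT+ cells and untreated MEFs for each probe set listed for 1 gene alone (points, red or blue where the 2 groups' arrays do not overlap), with the deposited gene value as a black line. The probe sets of Psmb10 lie between 1.16 and 2.08, those of Psmb9 between -0.51 and 4.23, and those of B2m below 0.

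Other genes of the pathway were counted by list. Of 19 other measured genes of class I processing 0 were called in c-KIT+ cells against untreated MEFs by limma. Of all genes 3.24% were called higher and 2.72% lower. Before adjustment 4 of the 19 passed 0.05 as higher (21.1%, against 11.2% of all genes) and 1 as lower (5.26%, against 9.85%). The lowest adjusted p was that of the peptide-trimming aminopeptidase Erap1, at a difference of 1.45 (limma adjusted p = 0.0644). Of 15 other class II genes 0 were higher and 1 was lower, the lysosomal protease Ctsl, which fell by 1.43 (limma adjusted p = 0.0305). Before adjustment 1 of the 15 passed 0.05 as higher (6.67%, against 11.2%) and 2 as lower (13.3%, against 9.85%). Of 16 other costimulatory and inhibitory ligands and receptors 3 were higher, Cd244 by 1.67, Cd48, its ligand, by 1.40 and Cd274, the ligand PD-L1, by 1.31, and Cd276 was lower, at -1.42. The 3 were 18.8% of that list, against 3.24% of all genes, and before adjustment 8 of the 16 passed 0.05 as higher (50%, against 11.2%) and 2 as lower (12.5%, against 9.85%).

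Interferon gamma signalling, which is known to raise the immunoproteasome, was read from 20 genes. In c-KIT+ cells 2 of these were called higher by limma (10%, against 3.24% of all genes) and 0 lower (against 2.72%). Before adjustment 5 passed 0.05 as higher (25%, against 11.2%) and 1 as lower (5%, against 9.85%). The 2 called were the receptor chain Ifngr1, at 1.04 (limma adjusted p = 0.0440), and the GTPase Ifi47, at 1.94 (limma adjusted p = 0.00834). The other chain of that receptor, Ifngr2, went the other way, at -0.86 (limma adjusted p = 0.0849), and was the 1 lower before adjustment. The transcription factor Irf1, which binds class I promoters, had a difference of 0.59 (limma adjusted p = 0.274). Of 19 measured genes of the type I interferon response 0 were called in c-KIT+ cells by limma (2 higher and 0 lower before adjustment), and in CDH5+ cells 2 were higher, Bst2 by 2.21 and Rsad2 by 1.67. Of all genes 0.965% were called higher there, and before adjustment 6 of the 19 passed 0.05 as higher in CDH5+ cells (31.6%, against 6.3%). The CDH5+ arrays differed in this response: Ifit1 stood at 7.93 on replicate 1 and 5.95 on replicate 2, against 4.97 and 4.75 in untreated MEFs. Psmb8, Psmb9 and Psmb10 were also higher on CDH5+ replicate 1, while Tap2, Cd1d1 and H2-Oa were higher on replicate 2. Of the 49 genes 26 were higher on CDH5+ replicate 1 and 23 on replicate 2, and 58.6% of all genes were higher on replicate 1. Lists of markers were also read as the log2 of their summed linear levels, which leans on the brightest gene. For the 5 fibroblast markers it was higher on replicate 1 too, at 11.98 against 10.17. For the 5 endothelial markers it was lower there, at 10.68 against 11.60. The part of the interferon response and of other cell types in the values of the 49 genes was not tested.

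Markers of antigen presenting cells were read beside these results. None of 9 dendritic cell markers and none of 7 B cell markers was called by limma between c-KIT+ cells and untreated MEFs. Of all genes 3.24% were called higher and 2.72% lower, and at such shares a list this short may well have 0 calls. Before adjustment 0 passed 0.05 as well, against 11.2% of all genes as higher and 9.85% as lower. None of these markers stood above the background on both arrays of any group. Itgax, a dendritic cell integrin, lay between 4.12 and 4.29. For dendritic cell markers the log2 of the summed linear levels was 8.14 to 8.26 in untreated MEFs. It was 8.31 to 8.56 in CDH5+ cells and 8.11 to 8.34 in c-KIT+ cells. For B cell markers it was 7.68 to 7.84, 7.79 to 7.85 and 7.80 to 7.92 in the same order of groups. Of 9 macrophage markers 3 were higher in c-KIT+ cells, Cd14 by 2.97, Adgre1 (listed as Emr1) by 1.23 and Cd68 by 1.08, that is 33.3% against 3.24% of all genes. Mertk was the lowest, at a difference of -1.20 that was not called (limma adjusted p = 0.0811), and the median difference of the 9 was 0.10. Summed in the same way, all 9 stood at 8.56 to 8.70 in untreated MEFs. They stood at 9.34 to 9.50 in CDH5+ cells and 9.58 to 9.67 in c-KIT+ cells. The macrophage receptor Csf1r lay between 5.40 and 5.76 on all arrays, within the background. The part of such cells in the rise of the immunoproteasome genes was not tested.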

How the data were processed

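The authors deposited log2 values per gene, for 26323 Ensembl genes, and per probe set, for 1236087 probe sets, from 6 arrays, with replicates not pooled. How the arrays were normalized, with which software and on which genome build was not given in the sources used here, and nothing was rescaled. GEO's platform annotation, which can be old, lists 1 gene symbol for 321091 probe sets, several for 7796 and none for 907200.

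Each gene had a linear model in limma 3.58.1 (R 4.3.3), as the study's methods name limma and a 5% false discovery rate, with 1 mean for each group over all 6 arrays and 3 residual degrees of freedom. No gene was filtered out. The p-values measure only the spread between these arrays, whose number limits the precision. Replicate numbers were checked for pairing by correlating their deviations over all genes, which cannot exclude shared cultures.

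The 49 genes and the lists of other genes were chosen with earlier results of these data known. Of the 49, called genes are given in full and the others by range with examples. Of the other pathway lists, called genes are named, as well as Irf1. Fibroblast, endothelial and blood progenitor markers are given as counts, and some list genes are not reported here by name. Psmb6, Psmb7, Psme1, Psme2, Erap1, Cd1d2, Ifngr2, Igtp, Irgm1, Ifit1, H2-K2, H2-Q5, Itgax, Csf1r, Mertk and Ptprc were named after their values were seen. Symbols were matched through RefSeq synonyms, and some list genes had no match. The promoters and the order of genes are from RefSeq (GRCm38.p6).

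The fits were repeated with a block for the replicate number, without each array in turn, after median centring or quantile normalization, dim genes left out (under 3.84 on the log2 scale), with an intensity trend or a robust variance prior, and on the median of a gene's probe sets.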

Additional observations from a re-analysis of the deposited data

How the results depend on the processing

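Against untreated MEFs, the count of 6 genes called higher in c-KIT+ cells was 3 with the median of probe sets per gene, and between 0 and 5 with each array left out, 0 being without c-KIT+ replicate 1 or 2, where all genes called fell from 854 higher and 716 lower to 137 and 11, and 152 and 18. Those fits assume that the remaining c-KIT+ array varies like the other groups. The count of 0 called lower was between 0 and 1 with each array left out, 1 being without untreated replicate 2, where all genes gave 1855 and 1170. The count of 1 called over the 3 groups was 0 under quantile normalization, 2 with dim genes left out, 2 with an intensity trend, and between 0 and 2 with each array left out. Over all genes, same-numbered replicates showed little shared deviation (correlations of their deviations 0.12, -0.02 and -0.05). With 2 arrays per group this cannot exclude shared cultures or batches, so pairing stays undecided. With the replicate number as a block the count over the 3 groups was 0 and that of higher genes in c-KIT+ cells 4, without Psmb10 and H2-Oa. The median log2 difference between c-KIT+ and CDH5+ cells, 0.10, was 0.0169 under quantile normalization, and the cause was not tested. Of the 13 alternatives Psmb8 kept its call in 11, Tap2 and Cd1d1 in 9, Psmb9 in 8, Psmb10 and H2-Oa in 5, and none of the 49 reversed a called direction. The signals of 24 genes never exceeded the background, so smaller changes in them could not be seen. Quantile normalization turned the split of all called genes from 854 higher and 716 lower into 731 and 751.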

Other observations

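Rows with an H2- symbol and another biotype than protein coding were 9, all pseudogenes or polymorphic pseudogenes, and limma called none in any comparison (before adjustment at 0.05, H2-K2 passed as higher and H2-Q5 as lower in both comparisons with untreated MEFs). H2-K2 measured 6.03 and 5.69 in untreated MEFs, 6.73 and 6.46 in CDH5+ cells, and 6.58 and 7.23 in c-KIT+ cells, so that the untreated arrays lay below the others, with a difference of 1.05 in c-KIT+ cells (limma adjusted p = 0.110). H2-Q5 went the other way, at 4.86 and 4.57, 3.92 and 3.85, and 3.65 and 2.94, all within the background, with a difference of -1.42 (limma adjusted p = 0.0508).

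The untreated replicates differed in class I genes, in both directions. Replicate 1 was above replicate 2 in, for example, H2-K1, H2-D1, H2-T23, Psmb8, Psmb9, Tap1, Tap2 and Tapbp. It was below replicate 2 in, for example, H2-Q1, H2-Q2, H2-Q4, H2-Q7, H2-Q10, H2-T3, Psmb10 and Cd1d1. Of all the MHC and antigen presentation genes, 25 were higher on replicate 1 and 24 on replicate 2. The interferon-induced GTPase Igtp was higher on replicate 1, at 4.98 and 3.62. Irgm1, also of the interferon gamma list, was higher on replicate 2, at 6.11 and 6.88. Igtp stood at 6.65 and 6.75 in c-KIT+ cells, a difference of 2.40 that was not called (limma adjusted p = 0.0569).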
